A study of Homo sapiens with 6 samples.

Results

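The 10 genes of fatty acid synthesis and desaturation described here were SCD, SCD5, FASN, ACACA, ACLY, ELOVL5, ELOVL6, FADS1, FADS2 and SREBF1, out of 61015 annotated genes with a transcript on file. They were listed by name and chosen by their CPM, from counts summed per gene, compared between the groups of these same libraries, so that difference is described for them and carries no test. Long non-coding RNA-sequencing, which also counts messenger RNA, was performed on paclitaxel (PTX)-resistant MDA-MB-231, an established line from a triple-negative breast tumour that has mesenchymal features. Cells were stained for aldehyde dehydrogenase (ALDH) activity with the ALDEFLUOR substrate and separated by flow cytometry into 3 libraries of ALDH+ cells, named BCSC for breast cancer stem cells, and 3 of ALDH- cells, named non-BCSC. Both groups share the PTX-resistant background and come from 1 line, and no drug-sensitive cells enter the comparison. No source states that the 3 libraries of a group came from separate cultures or sorts, so errors and p-values measure the spread between these libraries, which may be technical.

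Fatty acid synthesis starts in the cytosol, where ACLY cleaves citrate to acetyl-CoA, ACACA carboxylates it to malonyl-CoA, and FASN builds palmitate. ELOVL6 and ELOVL5 lengthen the chains, while SCD and its paralog SCD5 place the first double bond in saturated acyl chains to give palmitoleate and oleate. FADS2 and FADS1 are the delta-6 and delta-5 desaturases of polyunsaturated fatty acids, and SREBF1 encodes the transcription factor SREBP-1, a master regulator of lipogenic genes. Desaturation by SCD sets the balance of saturated and monounsaturated lipids in membranes, and tumour cells often rely on it.

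SCD showed the largest difference of the 10 genes in TMM-scaled counts, a lead lost under the GC content and length correction given below (SREBF1 -2.66, FADS2 -2.37 and SCD -2.15). Its level was 331, 335 and 289 CPM (read counts relative to the library total, scaled by edgeR's TMM factors) in BCSC 1, 2 and 3, against 1937, 1667 and 1491 CPM in non-BCSC 1, 2 and 3. All BCSC libraries thus lay below all non-BCSC libraries, at 18.7% of the non-BCSC mean (318 ± 25.0 against 1698 ± 225 CPM, SD, n = 3 each). The log2 fold change, BCSC over non-BCSC, was -2.42 with a standard error (SE) of 0.12. The deposited counts behind these levels were 4785 to 6711 in BCSC and 15545 to 23478 in non-BCSC. All 10 passed edgeR's filter on low counts, and all 10 had a negative log2 fold change, from -2.42 for SCD to -0.36 for ELOVL5. The groups did not overlap for 9 of the 10, where 27.9% of all 20442 genes tested lay lower in BCSC without overlap. FASN was the exception.

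**Figure D1:**
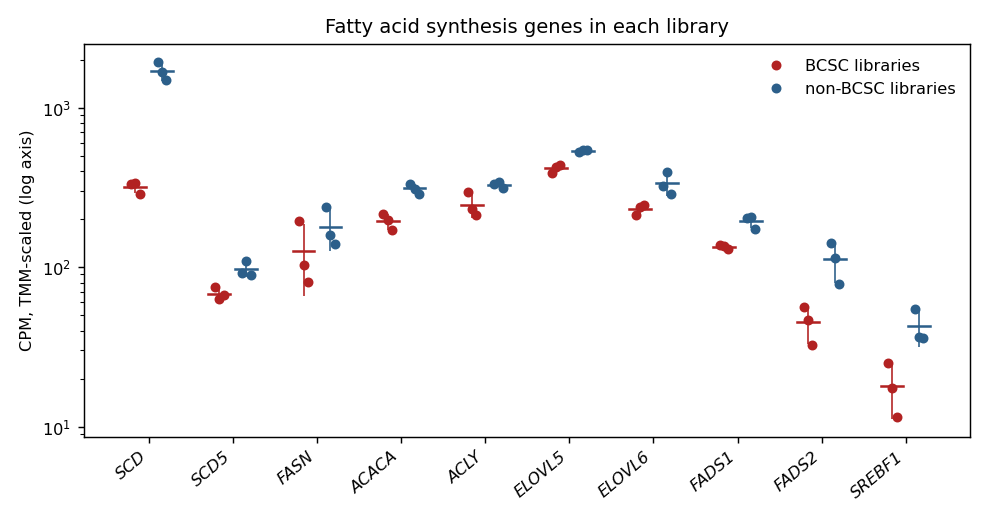
CPM of each gene in each library on a log axis, with the group mean as a horizontal line and the SD as a vertical line (n = 3 BCSC, red, and n = 3 non-BCSC, blue). SCD shows the widest gap, between 289 and 335 CPM in BCSC and between 1491 and 1937 CPM in non-BCSC, while the FASN libraries of both groups overlap.

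Promoter sequence is shown for SCD, for its paralog SCD5, and for FADS2 and SREBF1, the other genes past a 2-fold difference. The RefSeq table on GRCh38.p14 held 13 promoter windows of 300 nt for 9 of the 10 genes. In the sequences, capitals mark the CCAAT box, the letters CCAAT or, where the box is on the other strand, ATTGG. The windows are chr10:100346983-100347282 (plus strand) for SCD, chr4:82798747-82799046 (minus strand) for SCD5, chr11:61816154-61816453 (plus strand), 1 of a pair of windows, for FADS2, and chr17:17836937-17837236 (minus strand) for SREBF1.
SCD: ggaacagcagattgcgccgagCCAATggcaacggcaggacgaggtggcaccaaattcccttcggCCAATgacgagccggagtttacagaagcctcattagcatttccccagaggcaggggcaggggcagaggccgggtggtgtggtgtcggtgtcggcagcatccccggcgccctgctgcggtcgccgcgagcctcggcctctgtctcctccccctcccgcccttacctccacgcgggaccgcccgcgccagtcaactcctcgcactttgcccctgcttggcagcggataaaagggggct
SCD5: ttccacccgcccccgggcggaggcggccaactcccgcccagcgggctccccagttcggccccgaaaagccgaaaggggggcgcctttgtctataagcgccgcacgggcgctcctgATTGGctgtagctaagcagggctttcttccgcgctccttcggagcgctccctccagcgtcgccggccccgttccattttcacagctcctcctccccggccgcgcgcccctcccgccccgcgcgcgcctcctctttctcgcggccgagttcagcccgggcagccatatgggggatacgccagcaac
FADS2: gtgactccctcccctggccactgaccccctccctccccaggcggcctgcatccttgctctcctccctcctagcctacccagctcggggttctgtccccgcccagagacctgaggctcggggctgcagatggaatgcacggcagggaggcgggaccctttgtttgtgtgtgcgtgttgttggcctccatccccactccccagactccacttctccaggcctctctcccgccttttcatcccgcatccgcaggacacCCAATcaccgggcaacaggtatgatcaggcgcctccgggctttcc
SREBF1: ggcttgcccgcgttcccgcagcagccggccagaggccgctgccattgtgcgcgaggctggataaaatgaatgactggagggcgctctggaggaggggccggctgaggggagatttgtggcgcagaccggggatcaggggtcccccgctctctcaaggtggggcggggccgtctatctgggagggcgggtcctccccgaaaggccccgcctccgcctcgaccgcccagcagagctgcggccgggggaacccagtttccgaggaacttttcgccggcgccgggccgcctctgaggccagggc
The SCD window held a pair of CCAAT boxes, 229 and 186 nt before the annotated start, both on the coding strand. That of SCD5 held 1 on the other strand, 135 nt before the start. The FADS2 box lay 5 nt after the start, and the other FADS2 window, not shown, held no CCAAT box. No CCAAT box was found in the SREBF1 window, which held 3 GC boxes (GGGCGG). Over both strands, CCAAT was found in 8 of the 13 windows, from 6 genes, and in 34.6% of all 35116 windows of the same length. The windows of ACLY overlap and hold the same CCAAT boxes, so the 13 windows are not all separate. GGGCGG was found in 10 of the 13 and in 45.0% of all windows, and the E-box CACGTG in 1 (ELOVL5) against 7.26%. TCACNCCAC, the form of the sterol regulatory element searched for, was in 0 of the 13 windows and in 1.13% of all windows. These matches describe letters in a short window and say nothing of binding.

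Levels of different genes were compared per transcript length, as TPM (counts per kb of transcript, set to a common total in each library). In non-BCSC, SCD was first of the 10 genes at 846 ± 78.9 TPM and ranked 89 among all genes. In BCSC it ranked 1220 at 158 ± 8.77 TPM, behind ELOVL5 at 425 ± 41.7 TPM and overlapping the range of ACLY at 154 ± 24.9 TPM. Summed over the 10 genes, BCSC held 1146 ± 11.8 TPM and non-BCSC 2231 ± 114 TPM. SCD took 13.8 ± 0.727% of that sum in BCSC and 37.9 ± 1.98% in non-BCSC. Without SCD the sums were 989 ± 11.8 TPM (978 to 1001) in BCSC and 1386 ± 57.1 TPM (1327 to 1441) in non-BCSC. The genes summed were chosen by this same contrast, so the gap between these sums is a description only. ELOVL5 was the largest part of them, and the sign of its difference turned under the GC correction given below.

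Below SCD and ELOVL5 the order of the TPM levels was nearly the same in both groups. In BCSC it ran ACLY, ELOVL6, FADS1, ACACA, SCD5, FADS2, FASN and SREBF1, and in non-BCSC FADS2 and SCD5 changed places. Neighbours whose libraries overlapped were ACACA and SCD5, and FADS2 and FASN, in BCSC. In non-BCSC they were ELOVL6 and FADS1, ACACA and FADS2, FADS2 and SCD5, and SCD5 and FASN. SREBF1 was the lowest in both groups, at 17.7 ± 8.23 and 33.9 ± 7.48 TPM.

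SCD5, the second stearoyl-CoA desaturase of humans, differed far less than SCD. It measured 74.8, 62.8 and 67.1 CPM in BCSC and 91.8, 109 and 89.9 CPM in non-BCSC, without overlap, with a log2 fold change of -0.51 (SE 0.13). The ratio of SCD to SCD5 in TPM was 2.62 ± 0.317 in BCSC and 9.96 ± 1.78 in non-BCSC. SCD had 1 transcript on file, and its retrotransposed pseudogene SCDP1 held 24 counts over the BCSC libraries, 0.144% of the SCD count, and 69 over the others, 0.119%. SCD5-202 carried 93.1% and 94.8% of the SCD5 count in BCSC and non-BCSC. On GRCh37, the SCD gene spans chromosome 10, 102106990 to 102124583, plus strand, and SCD5 spans chromosome 4, 83550692 to 83719949, minus strand.

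SREBF1 and FADS2 were the other genes with a fold above 2 in the TMM-scaled fit. The 10 genes were chosen by this same contrast, so no adjusted p or call is given for them. SREBF1 measured 25.2, 17.5 and 11.5 CPM in BCSC against 54.9, 36.6 and 35.9 CPM in non-BCSC (log2 fold change -1.23, SE 0.30). In both groups the first library was the highest and the groups did not overlap. SREBF1 fell short of a 2-fold difference without BCSC replicate 3 (-0.99) and without non-BCSC replicate 1 (-0.95). Of the SREBF1 count, 30.3% in BCSC and 37.2% in non-BCSC sat on transcripts annotated as retained introns. SREBF1-203, a retained intron form, had 316 counts in non-BCSC 1 and 27 and 95 in the other non-BCSC libraries. SREBF1 (chromosome 17, 17713713 to 17740316, minus strand) overlaps RAI1 on the opposite strand by 1055 nt. RAI1 counts were 148% of those of SREBF1 in BCSC and 24.6% in non-BCSC. Whether strand was used in counting is not stated, so reads from the shared stretch cannot be told apart.

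FADS2, the delta-6 desaturase, measured 56.4, 46.4 and 32.6 CPM in BCSC against 142, 115 and 78.6 CPM in non-BCSC. The groups did not overlap, and the log2 fold change was -1.31 (SE 0.25), a 2.48-fold lower mean. FADS1, the delta-5 desaturase, differed less, at 137, 135 and 130 CPM against 202, 206 and 174 CPM, with a log2 fold change of -0.53 (SE 0.11). Both lie on chromosome 11, FADS1 at 61567099 to 61596790 on the minus strand and FADS2 at 61560452 to 61634826 on the plus strand, and they share 29692 nt on opposite strands. FADS2 also overlaps FEN1, a flap endonuclease gene on the same strand, whose counts summed to 4009 over the BCSC libraries and to 933 over the others. The split of reads between these genes is uncertain.

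In the TMM-scaled fit the enzymes that build palmitate were lower by smaller margins. ACLY measured 296, 231 and 212 CPM in BCSC against 331, 339 and 315 CPM in non-BCSC (log2 fold change -0.42, SE 0.13), and its groups did not overlap. ACACA, the cytosolic acetyl-CoA carboxylase, measured 215, 198 and 170 CPM against 334, 310 and 289 CPM (-0.68, SE 0.11), also without overlap. FASN, which carries out all steps from malonyl-CoA to palmitate, measured 194, 103 and 81.2 CPM against 238, 158 and 139 CPM. BCSC 1 lay above non-BCSC 2 and 3, and the FASN libraries spread by a coefficient of variation of 47.5% in BCSC and 29.3% in non-BCSC. Its log2 fold change of -0.50 (SE 0.31) became -0.96 without BCSC replicate 1, -0.35 without BCSC replicate 2, -0.27 without BCSC replicate 3 and -0.18 without non-BCSC replicate 1. Under the GC content and length correction given below, FASN reached -2.13, the lowest of its 20 alternatives. On GRCh37 minus strands of chromosome 17 lie ACLY (40023170 to 40086795), ACACA (35441927 to 35766927) and FASN (80036214 to 80056170).

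The elongases were lower as well, ELOVL5 by the smallest margin of the 10 genes. ELOVL5, which lengthens polyunsaturated chains, measured 391, 427 and 437 CPM in BCSC against 524, 542 and 539 CPM in non-BCSC (log2 fold change -0.36, SE 0.09). ELOVL6, which takes palmitate to stearate, a substrate of SCD, measured 213, 239 and 246 CPM against 323, 395 and 288 CPM (-0.53, SE 0.13). Neither gene's groups overlapped. Both signs turned when GC content and length were corrected, to 0.81 for ELOVL5 and 0.0039 for ELOVL6 with count-weighted transcripts. ELOVL5 spans chromosome 6, 53132196 to 53213977, and ELOVL6 chromosome 4, 110967002 to 111120355, both on minus strands.

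Base composition and background differed between the groups. Across the genes tested, the log2 fold change had a Spearman correlation of 0.545 with GC content, a description over genes that share 6 libraries. ELOVL5 and ELOVL6 had the lowest GC content of the 10 genes (40.2% and 41.4%) and FASN and SREBF1 the highest (65.3% and 63.0%), with SCD at 46.5%. With GC content and length corrected, the median of all genes moved from -0.05 to 0.19 and SCD stood at -2.15, FADS2 at -2.37, SREBF1 at -2.66 and FASN at -1.73. With the mean over annotated transcripts in place of count-weighted ones, SREBF1 (-2.63), FASN (-2.13) and FADS2 (-2.04) all lay beyond SCD (-1.84). Counts on 407 olfactory receptor genes, which these cells should hardly express, summed to 39.5 to 151 CPM in BCSC and 538 to 1228 CPM in non-BCSC. Read as an even background per kb, this was at most 0.514% of the SCD count in any library, but 5.4% to 17.9% of the SREBF1 count in non-BCSC. With it removed, SCD stood at -2.73 and SREBF1 at -1.43, while the median of all genes moved to 0.14 among the 15823 then tested. The shifts of SCD and SREBF1 are thus not a measure of the background on these genes alone. The part of either in the differences was not otherwise tested.

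**Figure D2:**
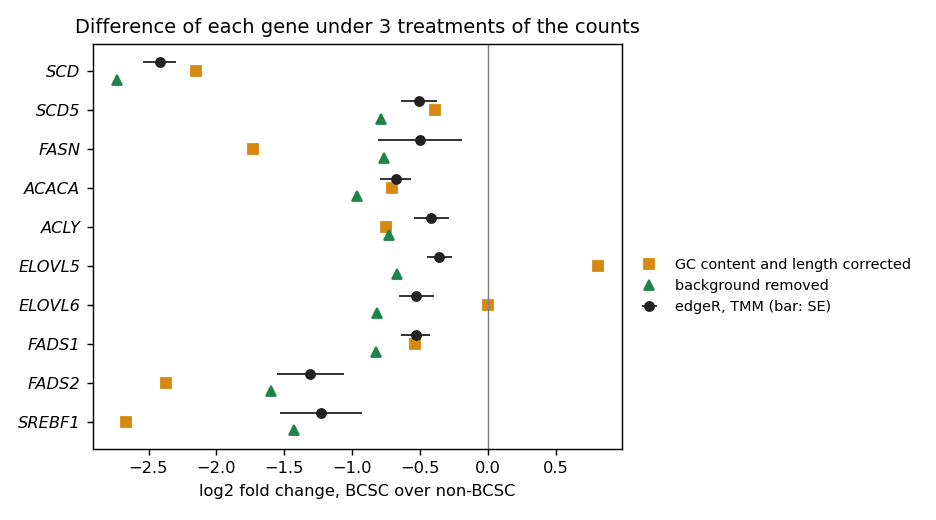
Log2 fold change of each gene (x axis, BCSC over non-BCSC) from the TMM-normalised edgeR fit with its SE (black), after correction for GC content and length (orange) and after removal of the background (green). Both corrections are drawn in their count-weighted forms. In these SCD lies between -2.73 and -2.15, against -1.84 under the GC correction without count weights. FASN, FADS2 and SREBF1 move down under the GC correction, and ELOVL5 moves above 0.

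Single transcripts were far less steady than gene sums. ACACA-231 held 2587, 977 and 0 counts in BCSC where non-BCSC had 3859, 0 and 2733, while ACACA-237 held 1547, 1842 and 2673 against 0, 2927 and 0. The pair thus traded places between replicates of 1 group. The ACLY count moved among 3 coding transcripts in the same way, with ACLY-207 at 96.6% of it in non-BCSC 2 and at 28.3% in non-BCSC 1. FADS2-202 took 26.6% of the FADS2 count in BCSC and 62.2% in non-BCSC, but from 0.7% to 41.4% among the BCSC libraries alone. ELOVL5-207 had 2771, 386 and 0 counts in the non-BCSC libraries. In contrast, FASN-201 and FADS1-201 each held at least 97.8% of their gene's count in both groups. ELOVL6-201 held 73.7% and 69.8%. ACLY-202 was the 1 named transcript of ACACA, ACLY, ELOVL5, FADS2 and SREBF1 whose share did not overlap between the groups, at 13.4% to 43.1% in BCSC and 0% to 5.7% in non-BCSC. How the reads were split between such alike transcripts is not given, so these shares are uncertain.

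**Figure D3:**
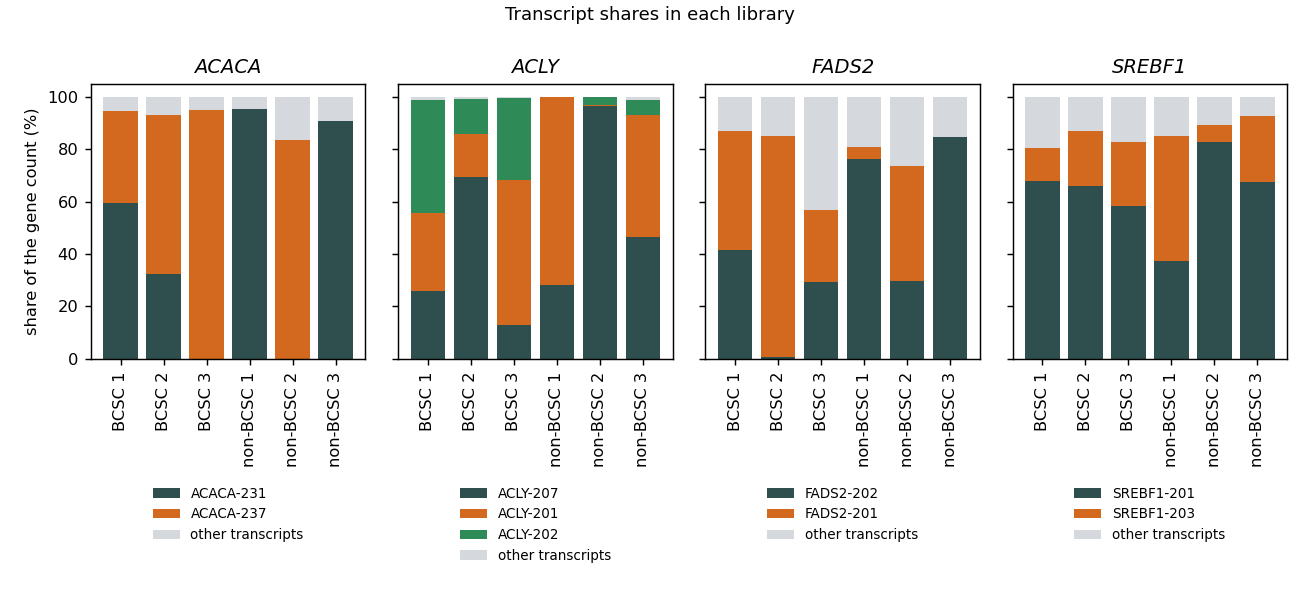
Share of each gene's count (y axis, percent) held by its named transcripts in each of the 6 libraries, for ACACA, ACLY, FADS2 and SREBF1. The leading transcript of ACACA differs between replicates of the same group, from 0 to 95.2% for ACACA-231 in non-BCSC.

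The genes whose log2(CPM + 1) followed SCD most closely over the 6 libraries were ANKRD1, ATP5F1C, SPARCL1, PSPC1 and INSIG1, among 5660 genes with at least 500 counts on average. Pearson's r ran from 0.998 to 0.999, and it mainly reflects the gap between the groups. INSIG1, which holds the SREBP precursors in the endoplasmic reticulum and is itself an SREBP target, measured 17.3 ± 2.25 CPM in BCSC and 221 ± 26.4 CPM in non-BCSC. Among the genes described here r with SCD was highest for FADS1 (0.976) and ACACA (0.971) and lowest for FASN (0.600), and SREBF1 was below the count minimum. SCD had the 10th lowest log2 fold change of these 5661 genes and INSIG1 the 3rd lowest.

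Other genes around the pathway were read from 9 lists holding 98 genes, of which 85 were tested. In edgeR's quasi-likelihood test with Benjamini-Hochberg adjustment over all genes, a call needed an adjusted p under 0.05 and a fold above 2. Rose and fell below mean called by this rule. By it 12 rose and 12 fell in BCSC, where 8.85% of all genes tested rose and 11.3% fell. With 6 to 14 genes tested per list, counts of 1 to 3 genes lie near these shares and are descriptions only. On adjusted p alone 18 of the 85 were higher and 18 lower, against 3125 and 2978 of all 20442 genes. The median log2 fold change of the 85 genes was 0.09, against -0.53 for the 10 genes above and -0.05 for all genes. Among 10 tested genes of SREBP activation and lipogenic transcription factors, 1 rose and 1 fell. INSIG1 fell (log2 fold change -3.67, SE 0.15, adjusted p = 3.13e-06). SCAP, the escort protein of SREBP, rose (1.61, SE 0.32, adjusted p = 0.00696), and this call was lost after the GC correction (0.29). SREBF2, the paralog that favours cholesterol genes, ranged from 35.1 to 66.7 CPM in BCSC and from 29.9 to 65.2 CPM in non-BCSC.

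In the sterol arm of SREBP targets, 5 of 8 genes fell and 0 rose, with a list median of -1.32. HMGCS1, which makes HMG-CoA, fell from 397 ± 50.2 CPM in non-BCSC to 67.9 ± 10.8 CPM in BCSC (log2 fold change -2.55, SE 0.15, adjusted p = 2.42e-05). IDI1 fell with a log2 fold change of -2.03, and FDFT1 and SQLE, which act in turn on the way from farnesyl groups to sterols, with -1.36 and -1.28. Among those not called were MVD (0.35, SE 1.02) and LSS (0.06, SE 0.33). After the count-weighted GC correction IDI1 and SQLE stood at -0.65 and -0.84, short of a 2-fold change. The SQLE difference was not kept in every alternative, its highest value among the 17 being -0.012.

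Supply of acetyl-CoA and NADPH gave 2 genes that rose and 2 that fell of 10 tested. PGD, an NADPH-forming enzyme of the pentose phosphate pathway, fell from 392 ± 83.5 to 130 ± 26.5 CPM (-1.59, SE 0.19), and IDH1, the cytosolic isocitrate dehydrogenase, from 119 ± 10.6 to 58.6 ± 2.79 CPM (-1.02, SE 0.12). ACACB, the mitochondrial carboxylase, rose (1.04, SE 0.30) and so did SLC25A1, the citrate carrier (1.18, SE 0.33). Of these 4 calls that of PGD held in all alternatives. The GC correction put IDH1 at 0.052 and SLC25A1 at -0.36. The ACACB call was lost without BCSC replicate 1 (0.87) or 2 (1.04) or non-BCSC replicate 1 (0.99) or 3 (1.06), and in 12 of 17 alternatives in all, and that of SLC25A1 without BCSC replicate 1 (0.98) or 2 (1.15) or non-BCSC replicate 2 (1.08) or 3 (1.07). IDH1 fell short of a 2-fold change without BCSC replicate 3 (-0.99) or non-BCSC replicate 1 (-0.92) or 2 (-0.94).

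Among 12 other elongation and desaturation genes 2 rose and 0 fell. Those that rose were ELOVL1 (1.34, SE 0.34) and TECR (1.19, SE 0.32), which act on very long chains. On adjusted p alone, without the 2-fold minimum, 4 of the 12 were higher and 1 lower. Of 14 genes of acyl-CoA activation and glycerolipid synthesis 3 rose and 2 fell. ACSL3, an acyl-CoA synthetase of the endoplasmic reticulum and lipid droplets, fell from 824 ± 25.1 to 290 ± 19.5 CPM (-1.50, SE 0.09, adjusted p = 3.5e-05), and LPIN1, a phosphatidate phosphatase, fell (-1.20, SE 0.13). MBOAT7 (2.01), AGPAT1 (1.66) and AGPAT3 (1.08), which acylate lysophospholipids, rose. The calls of ELOVL1, TECR, the 3 acyltransferases, ACSL3 and LPIN1 were lost under the count-weighted GC correction, with ACSL3 at -0.76 and LPIN1 at -0.85. With the mean over annotated transcripts ACSL3 stood at -0.27. ELOVL1 and TECR also lost theirs without BCSC replicate 1 (1.10 and 0.86) or non-BCSC replicate 2 (1.17 for both) or 3 (1.26 and 0.99), and AGPAT3 without BCSC replicate 1 or non-BCSC replicate 3 (0.93 for both). Of 17 alternatives in all, the call was lost in 6 for ELOVL1, 8 for TECR and 9 for AGPAT3.

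For uptake, 1 of 7 genes rose and 2 fell. SLC27A4, a fatty acid transport protein, rose from 1.94 ± 1.73 to 15.1 ± 5.12 CPM (2.97, SE 0.61), and CD36, the fatty acid translocase, fell from 13.4 ± 6.98 to 1.80 ± 1.66 CPM (-2.90, SE 0.70). SLC27A2 fell, with 0, 0 and 1 counts in BCSC, where the other group held 19, 12 and 24. The CD36 call was lost without BCSC replicate 2 (-2.63) or non-BCSC replicate 3 (-2.40), and that of SLC27A2 without BCSC replicate 1 or 2 or non-BCSC replicate 3. In lipolysis PNPLA2, the triglyceride lipase, was the 1 of 6 genes that rose (1.90, SE 0.34). In oxidation CPT1A, the gate of fatty acid entry into mitochondria, was the 1 of 12 that rose, and none fell. It rose from 70.7 ± 8.78 to 151 ± 20.9 CPM (1.09, SE 0.14). On adjusted p alone, without the 2-fold minimum, 2 of the 12 were higher and 2 lower. Of 6 AMPK subunits PRKAB1 rose (1.33, SE 0.27). The PNPLA2 and CPT1A calls were lost under the GC correction (0.22 and 0.93), the latter also without BCSC replicate 1 (0.99). In all, the CPT1A call was lost in 7 of 17 alternatives, while those of SLC27A4 and PRKAB1 held in all alternatives.

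Total counts ran from 15925943 to 21215352 in BCSC and from 9898588 to 12263667 in non-BCSC, so the non-BCSC libraries are the shallower ones, and a count of 0 allows up to 0.141 to 0.303 CPM. Markers of MDA-MB-231 were abundant, as VIM with 24196 to 75830 counts. The 6 such markers summed to 6963 to 8107 CPM in BCSC and 4388 to 5767 CPM in non-BCSC, and 7 luminal and epithelial markers to 81.0 to 93.2 and 103 to 143 CPM, with 1 of the 5 tested lower in BCSC. Of 5 ALDH genes 3 fell and 0 rose in BCSC, ALDH1A1 with 0, 5 and 6 counts in BCSC where the other group held 38, 28 and 32. ALDH1A3, the most counted of them, measured 29.8 ± 3.98 CPM in BCSC and 17.5 ± 5.74 CPM in non-BCSC without overlap (log2 fold change 0.77, edgeR adjusted p = 0.0577), so the ALDH genes did not all lie on 1 side. Markers of other cells were uneven, and those of leukocytes, erythroid cells and adipocytes were low. Both leukocyte and erythroid markers tested were called lower in BCSC, as were 2 of 3 fibroblast and endothelial markers. The 1 adipocyte marker tested was not called. Of all genes tested, 11.3% were called lower. The 5 leukocyte and erythroid markers summed to 0.8 to 1.5 CPM in BCSC and 14.9 to 26.4 CPM in non-BCSC. The 5 adipocyte markers summed to 0.3 to 1.8 and 0.9 to 5.8 CPM with CIDEC at 0, and 3 fibroblast and endothelial markers to 68.6 to 83.3 and 135 to 166 CPM. Their part in the results was not tested, and in bulk RNA fewer cells of a type and less RNA per cell cannot be told apart.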

How the data were processed

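Long non-coding RNA-sequencing of 6 libraries was analysed, 3 BCSC and 3 non-BCSC, grouped by sample title because the cell type label is the same for all. The authors deposited whole-number counts of reads per transcript, not normalised. The study's methods name HISAT2 and hg19, while the submitters' processing notes list hg38, HISAT2, featureCounts and DESeq2, so the build behind the counts is not settled. The random-primed libraries kept strand (dUTP), and its use in counting is not given in the sources used here. Of 252618 transcripts, 249787 (98.9%) matched GENCODE v44lift37 by identifier and were summed per gene, and the unmatched held 0.229% to 0.341% of counts. Gene coordinates are GRCh37, and promoter windows are RefSeq on GRCh38.p14.

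The gene test used edgeR 4.0.16 under R 4.3.3, with filterByExpr, TMM and a robust quasi-likelihood fit on group alone, with Benjamini-Hochberg adjustment over 20442 genes. Calls needed an adjusted p under 0.05 with a fold above 2. TPM used annotated transcript lengths. The test was checked on simulated counts. Values are means ± SD. Reads carry no molecular identifiers, so limits from counts cover counting error only, and a count of 0 allows 3 counts. Replicates of a group differed beyond counting noise (chi-square per degree of freedom 15.2 to 42.1).

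The genes and lists were chosen with earlier results of these data known. Named were the 10 genes, their transcripts with at least 10% of the gene count, the genes called in each list (at most 4 per direction by smallest p, with FDFT1, SREBF2, MVD and LSS added after their values were seen) and the 5 genes most like SCD. Some list genes are counted but not reported by name here. Alternatives were RLE size factors, no TMM, DESeq2 1.42.0, other count minimums, a replicate block, leaving out each library, thinned counts, coding or single transcripts, GC content and length correction (loess, span 0.3) and background removal. The count-weighted forms of the last 2 and the block with GC correction were chosen after seeing the data and are the forms quoted above.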

Additional observations from a re-analysis of the deposited data

How the results depend on the processing

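SCD stayed lower in BCSC under all 20 alternatives run, between -2.73 and -1.84 on the log2 scale. It stood at -1.84 with GC content and length corrected, with or without the replicate block, at -2.15 with count-weighted transcripts, at -2.66 with the background removed and at -2.73 with count-weighted lengths. Leaving out 1 library gave -2.48 to -2.26. With the mean transcript length of the gene, SCD measured 101 TPM in BCSC and 554 TPM in non-BCSC. ELOVL5 turned to 0.29 (0.81 count-weighted), ELOVL6 to 0.14 (0.16 with the block, 0.0039 count-weighted) and SLC25A1 to -0.53 (-0.55 with the block, -0.36 count-weighted) under the GC correction, and IDH1 turned to 0.052 in its count-weighted form alone (-0.33 in the other forms). The cause was not tested. Over the 20 alternatives FADS2 ranged from -2.55 to -1.05, SREBF1 from -2.66 to -0.95 and FASN from -2.13 to -0.18.

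Over all genes, 1810 rose and 2307 fell. GC correction gave 3129 that rose (3134 with the block, 2834 count-weighted), and no minimum fold gave 3125. DESeq2 gave 4771 that fell among 49795 genes fitted (median log2 fold change -1.20), a minimum of 10 counts 1177, background removal 1086 and its count-weighted form 839. Leaving out 1 library gave 959 to 2230 that rose and 1103 to 3004 that fell. Of the lipid genes, 12 rose and 12 fell. The number that rose was 7 after count-weighted background removal and 6 to 14 when 1 library was left out, with 6 without BCSC replicate 1 and 7 without non-BCSC replicate 3. Same-numbered libraries of the groups deviated with r of 0.179, 0.0142 and 0.216, and differently numbered ones with r from -0.199 to 0.0537. Whether the numbers mark pairs is not settled by these values, and the main fit did not take them as pairs. The replicate block gave 1994 that rose, 2321 that fell and -2.41 for SCD. At 9898588 to 21215352 counts per library, genes near 0 such as SLC27A2 carry no measurable fold.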
